A study of Mus musculus with 24 samples.

Results

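The effect of neonatal allergen sensitization was examined in the dendritic cells (DCs) of asthma-at-risk mouse pups by comparing 4 arrays from allergen-sensitized pups (AF88 to AF91) with 4 arrays from naïve pups (AF80 to AF83). These 8 arrays were picked by their labels from 24 in the series, and all belonged to the first of the array sets. Earlier results of these data were known when the comparison and the gene lists were chosen. All pups in the comparison were BALB/c offspring of mothers made asthmatic with the egg white protein ovalbumin (OVA), so maternal asthma was shared by both groups. The mothers had received OVA in alum as newborns, at days 3 and 7. They had then been challenged with aerosols of 3% OVA, for 10 min a day in courses of 3 days in a row, at the ages of 4, 8 and 12 weeks, and mated with normal males. The sensitized pups received a single intraperitoneal injection, in a volume of 0.1 ml, that held 1 mg of alum and 5 µg of OVA, on day 3 by the labels and on day 4 by the methods, and the naïve pups did not. Spleens were taken at day 14 from both groups, and CD11c-positive cells were retained on magnetic beads after collagenase D digestion. RNA was measured on the Affymetrix Mouse430A 2.0 array, and values are log2 of the deposited signal, so that a difference of 1 is a 2-fold change.

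Several features of the design limit what the comparison can separate. There was no group given alum alone, so the effects of OVA and of alum cannot be told apart. Litter, preparation day and extraction batch were not among the labels and cannot be told apart from the groups. The methods describe the arrays of a group as biological replicates, but the number of pups behind an array was not given. The p-values rest on the spread among the 15 arrays of the first set, which included normal pups. In bulk RNA of this kind, a lower signal from fewer cells of a type and from less RNA per cell cannot be told apart, and the same holds for a higher signal.

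DCs take up antigen in the tissues, carry it to lymphoid organs and present it to T cells on MHC class II molecules, and the cytokines and costimulatory molecules they show set the type of T cell response. Alum is an adjuvant that favors allergic, type 2 responses to the antigen mixed with it. The spleen of a newborn mouse is also a blood-forming organ, in which megakaryocytes, the parents of platelets, and red cell precursors mature beside immune cells. Platelets release chemokines, serotonin and lipid mediators and adhere readily to leukocytes.

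The arrays were alike in their overall signal. Medians on the log2 scale ran from 8.09 to 8.15, and the median SD between arrays was 0.10 in both groups. The median correlation of an array with the others of its group, across probe sets, was r = 0.996 to 0.998. The log2 ratio of the 3′ to the 5′ actin control probe sets, a sign of RNA quality, was 0.41 to 0.54 on the naïve and 0.36 to 0.48 on the sensitized arrays. The leading axis of variation held 58.4% of the variance and placed the naïve arrays at −26.1 to −20.3 and the sensitized arrays at 15.7 to 32.6, with AF88 the farthest out. Markers of the labelled cell type were high: Itgax, which encodes CD11c, read 12.70 to 12.90 on naïve and 12.80 to 12.99 on sensitized arrays. Flt3, H2-Ab1 and Zbtb46 read 11.55 or more on every array. Genes of other cells were also above the array median. The complement gene C1qb read 12.95 to 13.14 on naïve and 12.60 to 12.85 on sensitized arrays. The T cell gene Cd3e read 9.66 to 9.80 and 8.43 to 8.64, so these markers do not give the purity of the fraction. AF81 stood apart in a Y-linked transcript, Eif2s3y, which read 3.66 there and 9.35 to 10.83 on the other 7 arrays. AF82 stood apart in transcripts of the exocrine pancreas, whose list mean was 9.17 there and 5.53 to 6.32 on the others.

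Sensitization was accompanied by a broad change in the transcripts of the CD11c-positive fraction. Of 22626 probe sets tested, 1782 (7.88%) passed a Benjamini-Hochberg adjusted p of 0.05 and a log2 difference of 0.32 in size in limma's moderated test, 999 of them higher and 783 lower in sensitized pups. With each array centred on its median instead, 899 were higher and 906 lower. With each gene taken at its brightest probe set, 615 of 12393 genes (4.96%) rose and 424 (3.42%) fell, and the median log2 difference over all genes was −0.01. Counts of called genes in the lists below are to be read against these shares of all genes. The large changes lay mostly on the rising side: 55 genes rose 4-fold or more, against 2 that fell as far, Cxcl1 and the T cell receptor segment Trav9d-3. Transcripts of megakaryocytes, platelets, red cell precursors and early granulocytes rose, and transcripts of T cells, NK cells, immediate early genes and inflammatory chemokines fell. Most genes below were named for their calls in this same comparison. Where their groups are said not to overlap, this is a description and not further support.

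Genes of platelets and megakaryocytes showed the largest rises. Of the 16 measured members of this list, 14 rose, none fell, and the median log2 difference was 3.25, beside −0.01 for all genes. The other two, Rgs18 and P2ry12, differed by 0.22 and 0.30 and were not called. The mean log2 signal of the list was 6.61 to 6.79 on naïve and 9.16 to 9.93 on sensitized arrays.

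Pro-platelet basic protein (Ppbp), the precursor of a neutrophil-attracting chemokine stored in platelet granules, read 6.30, 7.26, 6.22 and 6.39 on the naïve arrays AF80 to AF83 and 12.41, 11.95, 11.73 and 11.70 on the sensitized arrays AF88 to AF91. The groups were far apart, with AF81 the highest of the naïve arrays and AF88 the highest of the sensitized. The difference of 5.40 ± 0.23 (SE) was a 42.3-fold rise and the largest of any gene (limma adjusted p = 3.01e-09). Platelet factor 4 (Pf4), another granule chemokine that binds heparin, read 7.33, 7.70, 7.13 and 7.48 on naïve and 12.38, 12.09, 11.63 and 11.83 on sensitized arrays, and rose by 4.57 ± 0.16 (limma adjusted p = 4.67e-10).

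The platelet 12-lipoxygenase Alox12, which turns arachidonic acid into 12-HETE, read 5.43, 5.60, 5.61 and 5.52 on naïve and 10.86, 10.49, 10.00 and 9.73 on sensitized arrays. The serotonin transporter Slc6a4, through which platelets load serotonin, read 4.66, 4.51, 4.64 and 4.61 on naïve and 9.58, 9.32, 8.82 and 8.82 on sensitized arrays. Both were near the low end of the signal in naïve pups and well above the array median after sensitization, with differences of 4.73 ± 0.21 and 4.53 ± 0.16. The spread between arrays was wider after sensitization, and AF88 was the highest array in both genes.

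The receptors that platelets use to stick to vessel walls rose with their granule contents. The subunits of the von Willebrand factor receptor were higher by 4.27 ± 0.28 for Gp1bb, 3.40 ± 0.17 for Gp5 and 2.50 ± 0.24 for Gp9. Itga2b, the αIIb chain of the fibrinogen receptor and a classical megakaryocyte marker, rose by 3.46 ± 0.19, from 5.46 to 6.10 on naïve to 8.89 to 9.75 on sensitized arrays. Its partner Itgb3, which other cells share, rose by 0.60 ± 0.11. Treml1, a receptor of platelet granules, rose by 3.83 ± 0.21, and Clec1b, the podoplanin receptor CLEC-2, by 3.10 ± 0.20. Selp and Vwf, which endothelium also makes, rose less, by 1.15 ± 0.22 and 0.82 ± 0.11.

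**Figure D1:**
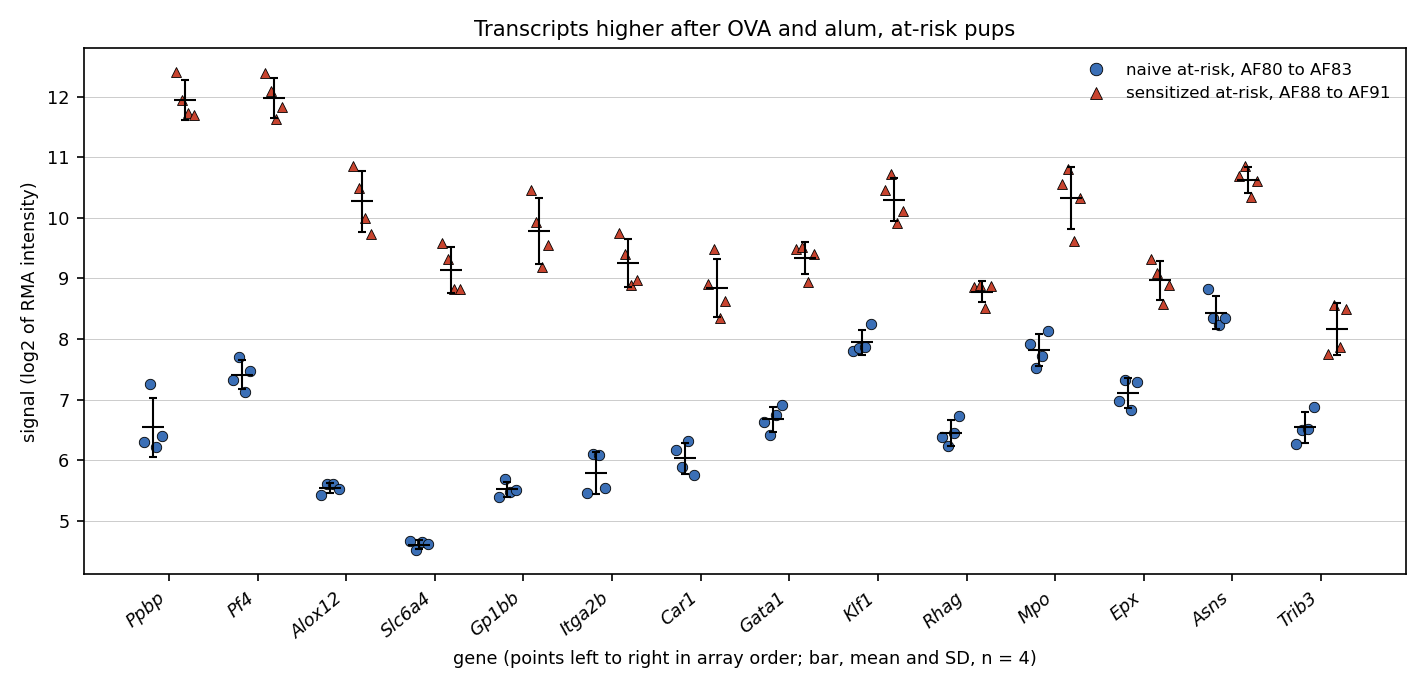
Signal (log2 of the RMA intensity) of 14 genes that rose with sensitization in asthma-at-risk pups, with circles for the naïve arrays (AF80 to AF83), triangles for the sensitized arrays (AF88 to AF91) and bars for mean and SD (n = 4). Ppbp moved from 6.22 to 7.26 on naïve arrays to 11.70 to 12.41 on sensitized arrays, and in Gata1, Mpo and Asns the groups were also apart.

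The promoters of the 4 platelet genes with the smallest adjusted p are shown because their transcripts moved together, each by 23.1-fold or more. Each covers 300 bases around the start of the gene, most of them before it, from RefSeq's annotation of GRCm38.p6, 5′ to 3′. Capitals mark AGATAA, the letters GATA factors favor, AGGAAG, favored by ETS factors and printed as CTTCCT where it lies on the opposite strand, and the TATA box letters TATAAA.
Pf4 (chr5:90772185-90772484, plus strand): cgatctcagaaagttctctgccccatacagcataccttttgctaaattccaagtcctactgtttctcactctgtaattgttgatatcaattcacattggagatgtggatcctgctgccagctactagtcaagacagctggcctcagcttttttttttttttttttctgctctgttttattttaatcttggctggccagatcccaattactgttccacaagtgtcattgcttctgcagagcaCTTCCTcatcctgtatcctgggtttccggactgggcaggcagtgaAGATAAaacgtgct
Slc6a4 (chr11:76998347-76998646, plus strand): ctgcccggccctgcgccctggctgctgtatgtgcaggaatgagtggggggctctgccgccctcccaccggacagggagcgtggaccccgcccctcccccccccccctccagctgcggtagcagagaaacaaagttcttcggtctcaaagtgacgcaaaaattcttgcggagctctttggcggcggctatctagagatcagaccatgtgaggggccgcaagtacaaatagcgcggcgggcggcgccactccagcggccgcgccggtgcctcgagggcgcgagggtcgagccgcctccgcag
Ppbp (chr5:90768268-90768567, plus strand): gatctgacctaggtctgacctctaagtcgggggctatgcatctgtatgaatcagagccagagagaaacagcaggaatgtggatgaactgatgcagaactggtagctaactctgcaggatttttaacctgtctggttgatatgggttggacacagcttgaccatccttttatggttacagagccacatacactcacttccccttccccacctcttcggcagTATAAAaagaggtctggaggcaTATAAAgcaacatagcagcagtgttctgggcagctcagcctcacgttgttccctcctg
Alox12 (chr11:70255321-70255620, minus strand): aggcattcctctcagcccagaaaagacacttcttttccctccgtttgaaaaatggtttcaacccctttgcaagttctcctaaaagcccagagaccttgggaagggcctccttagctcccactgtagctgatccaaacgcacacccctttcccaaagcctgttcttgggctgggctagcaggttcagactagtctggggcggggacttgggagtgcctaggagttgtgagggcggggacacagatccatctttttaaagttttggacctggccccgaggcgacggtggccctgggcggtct
In Pf4 the AGATAA began at base 36 after the start and the AGGAAG lay on the opposite strand 9 bases before it. In Ppbp the letters TATAAA began 30 and 8 bases before the start. The windows of Slc6a4 and Alox12 held none of these. Both strands were searched for these letters and for GGAATTTCC, no matches overlapped in these windows, and a match is a description of letters and not a bound site. Of the 14 platelet genes that rose, 12 had a promoter in the table, of which 4 held AGATAA, 7 held AGGAAG, 2 held TATAAA and none held GGAATTTCC. Among all 32851 promoters of that length the shares were 11.2%, 35.4%, 13.6% and 0.317%.

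Other genes among the 20 largest rises included further genes known from platelets, megakaryocytes and contractile cells. Myl9, the regulatory light chain of non-muscle and smooth muscle myosin, rose by 3.88 ± 0.24, Cavin2, a coat protein of caveolae, by 3.84 ± 0.27 and Fhl1, a LIM domain protein, by 3.56 ± 0.23. The metalloproteinase inhibitor Timp3 rose by 3.48 ± 0.29, from 5.35 to 6.03 on naïve to 8.26 to 10.08 on sensitized arrays. The neuropeptide Npy, which rodent megakaryocytes make, read 5.33 to 5.55 on naïve and 7.76 to 9.33 on sensitized arrays and rose by 3.11 ± 0.23. The cation channel Trpc6 rose by 2.76 ± 0.23, the β subunit of soluble guanylate cyclase, Gucy1b1, by 2.72 ± 0.23 and the sorting adaptor Tom1l1 by 2.72 ± 0.15. In each of these genes AF88 was the highest sensitized array, and in none did the groups overlap. Myct1 rose by 2.75 ± 0.26 on its brightest probe set, while its other probe set differed by 0.50 and was not called.

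Transcripts of red cell precursors formed the next group of rises. Of 21 measured erythroid genes, 19 rose and none fell, with a median of 1.30, and the mean log2 signal of the list went from 8.42 to 8.67 on naïve to 9.79 to 10.21 on sensitized arrays. Gata1, the transcription factor that directs both red cell and megakaryocyte formation, read 6.63, 6.42, 6.75 and 6.91 on naïve and 9.49, 9.52, 8.94 and 9.41 on sensitized arrays (2.66 ± 0.20, limma adjusted p = 6.22e-07). Its partner Tal1 rose by 2.74 ± 0.24 and the red cell factor Klf1 by 2.36 ± 0.20.

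The carbonic anhydrase Car1, an early erythroid gene, showed the largest erythroid rise, 2.81 ± 0.21, from 5.75 to 6.31 on naïve to 8.34 to 9.48 on sensitized arrays, of which AF89 was the highest. Blood group proteins of the red cell membrane followed, with Kel at 2.45 ± 0.21, Ermap at 2.35 ± 0.21, Rhag at 2.33 ± 0.11 and Rhd at 2.22 ± 0.12. Genes of heme synthesis and the mature membrane changed less. Alad, an enzyme of heme synthesis, rose by 1.30 ± 0.10, the anion exchanger Slc4a1 by 1.15 ± 0.11 from an already high 11.33 to 11.84, and the erythroid enzyme of the first step of heme synthesis, Alas2, by 0.91 ± 0.14. The transferrin receptor Tfrc differed by 0.28, and Hba-a1, an α-globin gene, read 4.27 to 4.64 on all 8 arrays by its probe set, and neither was called.

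Genes of dividing cells rose modestly. All 28 measured cell cycle genes had a positive log2 difference, 16 of them rose and none fell, and the median was 0.43. Cyclin B2 (Ccnb2) read 10.37, 10.51, 10.30 and 10.45 on naïve and 11.11, 11.24, 11.05 and 11.15 on sensitized arrays, a rise of 0.73 ± 0.06 (limma adjusted p = 3.58e-06). The mitotic kinase Aurka rose by 0.59 ± 0.08, thymidine kinase Tk1 by 0.52 ± 0.08 and the mitotic motor Kif11 by 0.44 ± 0.08. The differences of the MCM helicase subunits Mcm2 to Mcm7 were 0.08 to 0.29, and none was called. The erythroid list, whose precursors divide, moved the same way on the same arrays (8.42 to 8.67 against 9.79 to 10.21), and its part in the cell cycle result was not tested.

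In the neutrophil list the early and the late genes went apart. The 4 genes of the azurophil granules, which are made at the promyelocyte stage, rose, and none of the other 12 measured genes of the list was called. Myeloperoxidase (Mpo), which makes hypochlorous acid, read 7.91, 7.52, 7.72 and 8.13 on naïve and 10.55, 10.81, 9.61 and 10.32 on sensitized arrays, a rise of 2.50 ± 0.27 (limma adjusted p = 2.25e-05). The serine proteases of the same granules, cathepsin G (Ctsg), proteinase 3 (Prtn3) and neutrophil elastase (Elane), rose by 2.02 ± 0.23, 1.59 ± 0.23 and 1.45 ± 0.22. In all 4 genes AF89 was the highest and AF90 the lowest sensitized array, and no sensitized array overlapped the naïve ones. The 12 other members, made later in neutrophil life, had differences from −0.37 to −0.04, Ngp among them at −0.12. The list's median was −0.11, so its median and its calls differ in sign.

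Genes of eosinophils, mast cells and basophils also split. Of 15 measured, 3 rose and 2 fell. Eosinophil peroxidase (Epx) read 6.98, 7.33, 6.83 and 7.30 on naïve and 9.32, 9.08, 8.57 and 8.89 on sensitized arrays, a rise of 1.86 ± 0.20 (limma adjusted p = 1.93e-05). Eosinophil major basic protein (Prg2) rose by 1.08 ± 0.17, from 9.88 to 10.10 on naïve to 10.60 to 11.46 on sensitized arrays, and the progenitor factor Gata2 by 0.84 ± 0.18. Histidine decarboxylase (Hdc), which makes histamine, fell by 1.06 ± 0.21, with naïve values of 10.05, 9.19, 8.91 and 8.82 and sensitized values of 8.01, 8.35, 7.94 and 8.41. The mast cell chymase Cma1 fell by 0.98 ± 0.12, and the mast cell protease Cpa3 differed by −0.06 and was not called.

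Endothelial genes rose in part, and AF88 carried much of it. Of 17 measured, 7 rose and 1 fell, with a median of 0.27. Tek, the angiopoietin receptor, read 4.57, 5.14, 5.38 and 5.46 on naïve and 8.21, 7.27, 6.83 and 6.15 on sensitized arrays (1.98 ± 0.36), and the tight junction gene Cldn5 read 5.70, 5.81, 6.22 and 6.68 against 8.88, 7.95, 7.43 and 7.32 (1.79 ± 0.30). The list's defining marker, the endothelial cadherin Cdh5, fell by 0.36 ± 0.08 on its brightest probe set and was not called on its other probe set, and the call was lost when all 24 arrays were fitted. Without AF88 the counts were 5 higher and 1 lower, and without both AF81 and AF88 they were 4 and 1. Of 17 stromal genes 2 rose, the basement membrane collagens Col4a1 and Col4a2, and 2 fell, beside 4.96% and 3.42% of all genes. Neither collagen was called without AF80, AF81, AF82, AF88 or AF89, and the number of falls was 1 without AF81, AF82, AF83, AF88, AF90 or AF91. Col4a1 and Col4a2 were also not called when only the compared groups were fitted (limma adjusted p = 0.0804 and 0.0767). The endothelial list mean was 6.63 to 7.00 on naïve and 7.01 to 7.86 on sensitized arrays, with AF88 the highest.

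**Figure D2:**
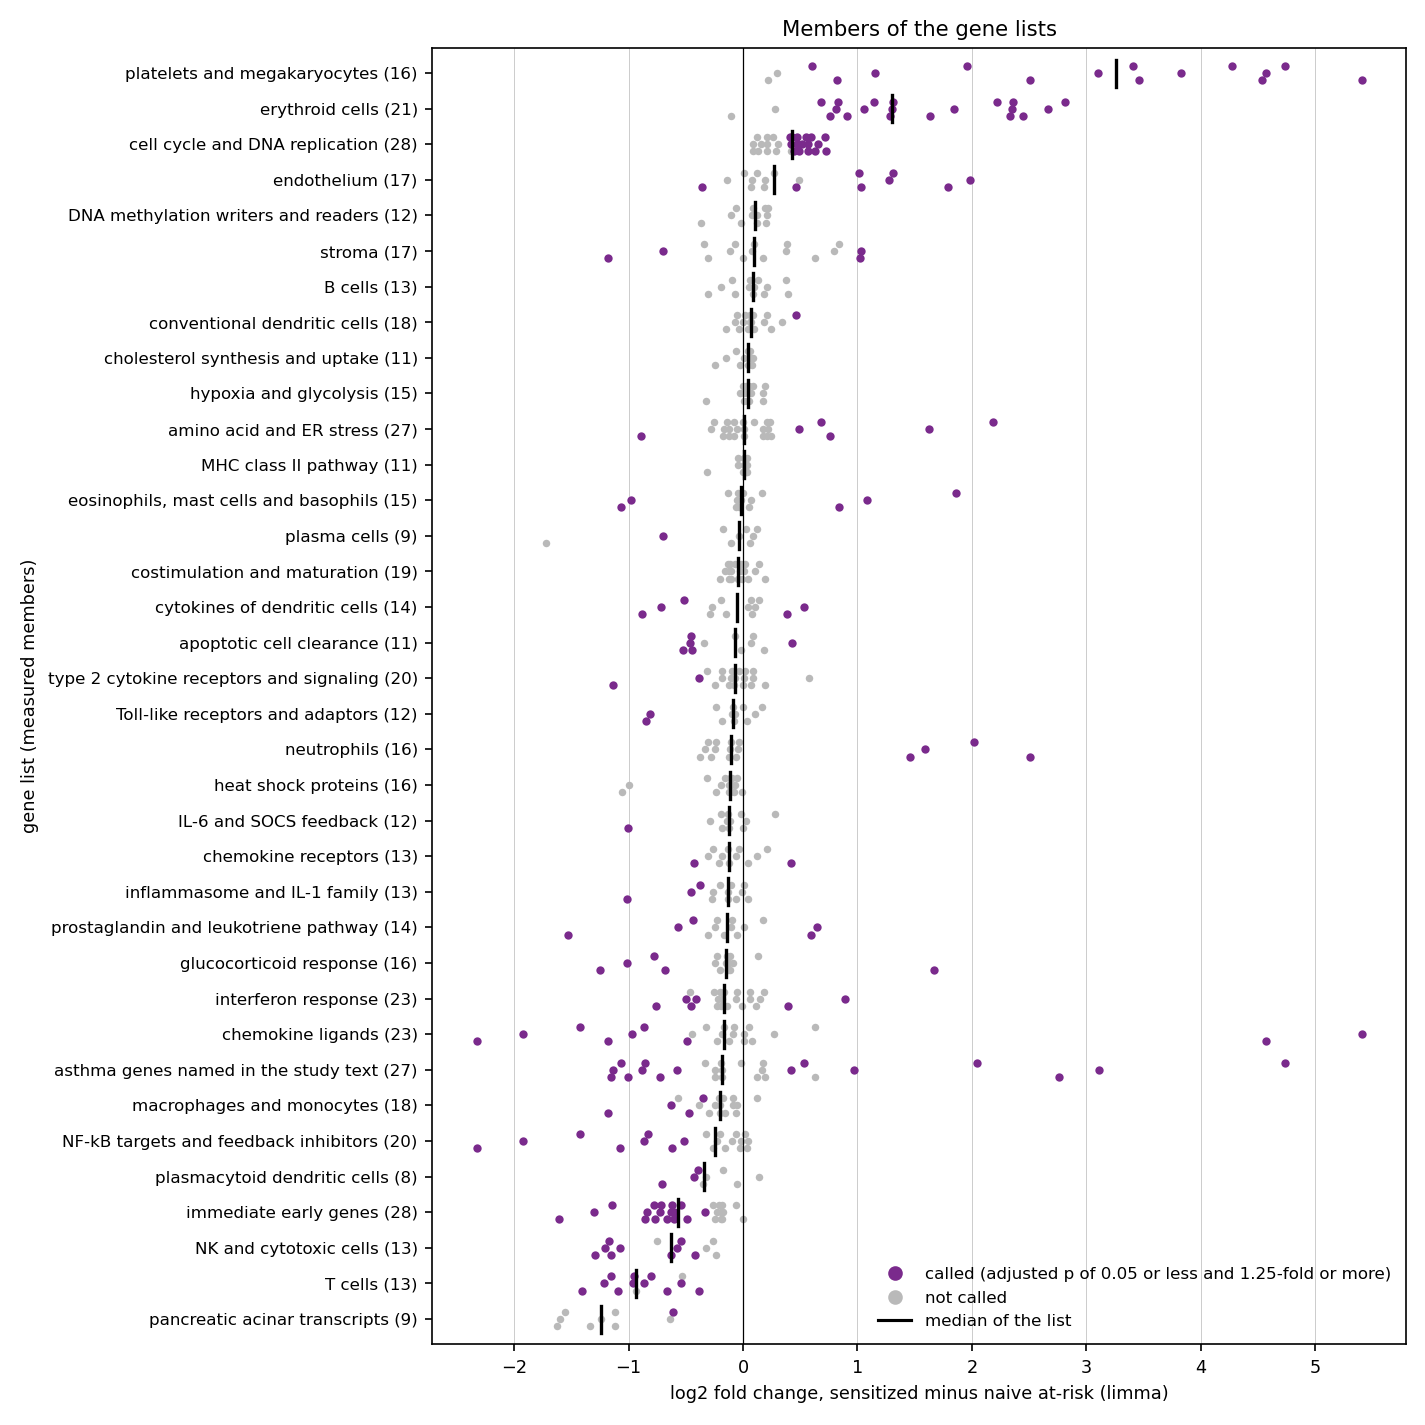
Log2 difference between sensitized and naïve asthma-at-risk pups for each measured gene of each list, with purple points for called genes, grey points for genes not called and a black bar at the median of the list. The platelet list stands highest with a median of 3.25, followed by the erythroid list at 1.30, and at the low end lie the T cell list at −0.93 and the pancreatic list, with 1 call, at −1.24.

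Transcripts of T cells fell together. Of 13 measured genes 11 fell and none rose, the median was −0.93, and the mean log2 signal of the list was 9.0 to 9.1 on naïve and 8.13 to 8.20 on sensitized arrays. Cd3e, part of the signaling complex of the T cell receptor, read 9.78, 9.66, 9.80 and 9.72 on naïve and 8.64, 8.55, 8.43 and 8.47 on sensitized arrays, a fall of 1.22 ± 0.24 (limma adjusted p = 0.00405). Both groups were tight, and the error was shared with the normal pups, whose sensitized arrays ran from 8.11 to 9.85. Cd3g fell by 1.40 ± 0.25, and the receptor segments Trbv1 and Trav9d-3 fell by 1.44 ± 0.28 and 2.10 ± 0.43. Of the 4 other probe sets assigned to Trav9d-3, 2 were called, at −2.27 ± 0.49 and −2.07 ± 0.43, and 2 were not called, at 0.01 and −0.26.

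Genes of T cell activation and control were among the largest falls. Ctla4, the inhibitory receptor of activated and regulatory T cells that binds CD80 and CD86 on DCs, read 7.88, 7.98, 7.89 and 7.55 on naïve and 6.03, 6.07, 6.27 and 6.12 on sensitized arrays (−1.70 ± 0.10, limma adjusted p = 4.96e-08). Interferon-γ (Ifng), the main type 1 effector cytokine, read 9.23, 9.15, 9.59 and 9.25 against 7.77, 7.62, 7.45 and 7.65 (−1.69 ± 0.25). Fas ligand (Fasl) fell by 1.73 ± 0.22, the folate receptor 4 gene Izumo1r, a marker of regulatory T cells, by 1.43 ± 0.13, and the costimulatory receptor Cd27 by 1.42 ± 0.19. Gata3, the factor of type 2 helper T cells, fell by 1.14 ± 0.19, from 6.69 to 7.14 on naïve to 5.55 to 6.02 on sensitized arrays. No naïve array overlapped a sensitized one in any of these genes, all of which were named for their calls.

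NK cell and cytotoxic genes fell as well. Of 13 measured, 9 fell, none rose, and the median was −0.63. Il2rb, a receptor chain for IL-2 and IL-15, read 10.68, 10.61, 10.59 and 10.61 on naïve and 8.85, 9.34, 9.57 and 9.56 on sensitized arrays, a fall of 1.29 ± 0.15 (limma adjusted p = 3.48e-05). The activating NK receptor Ncr1 fell by 1.17 ± 0.19, the T-box factor Eomes by 1.16 ± 0.14 and S1pr5, which guides NK cells out of tissues, by 1.21 ± 0.12. AF88 was the lowest sensitized array in Il2rb, Ncr1 and Eomes, and without AF81 and AF88 the number that fell was 5 of 13. In the type 2 list, 2 of 20 genes fell, Gata3 and Il7r, and none rose, where 3.42% of all genes fell and 4.96% rose. The other probe set of Il7r differed by −0.25 and was not called. The B cell list had no call among 13 genes, and its median was 0.09. Of 9 plasma cell genes only the factor Prdm1 was called, lower by 0.69, and effector T and NK cells make it too. The differences in the plasma cell list ran from −1.72 to 0.12, with a median of −0.04, and the lowest of them was not called.

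Other genes among the 20 largest falls included more genes of lymphocytes. The T cell surface protein Cd6 fell by 1.62 ± 0.23 and Trat1, an adaptor of the T cell receptor, by 1.62 ± 0.17. Scg5, a chaperone of secretory granules, read 7.33, 7.17, 7.63 and 7.37 on naïve and 5.31, 5.87, 5.96 and 5.63 on sensitized arrays, a fall of 1.68 ± 0.14 (limma adjusted p = 1.52e-06). The ubiquitin ligase Mid1 fell by 1.68 ± 0.25, the ubiquitin-like protein Ubd by 1.35 ± 0.17 and the protease inhibitor Serpinb9b by 1.34 ± 0.19. In none of these genes did the groups overlap.

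**Figure D3:**
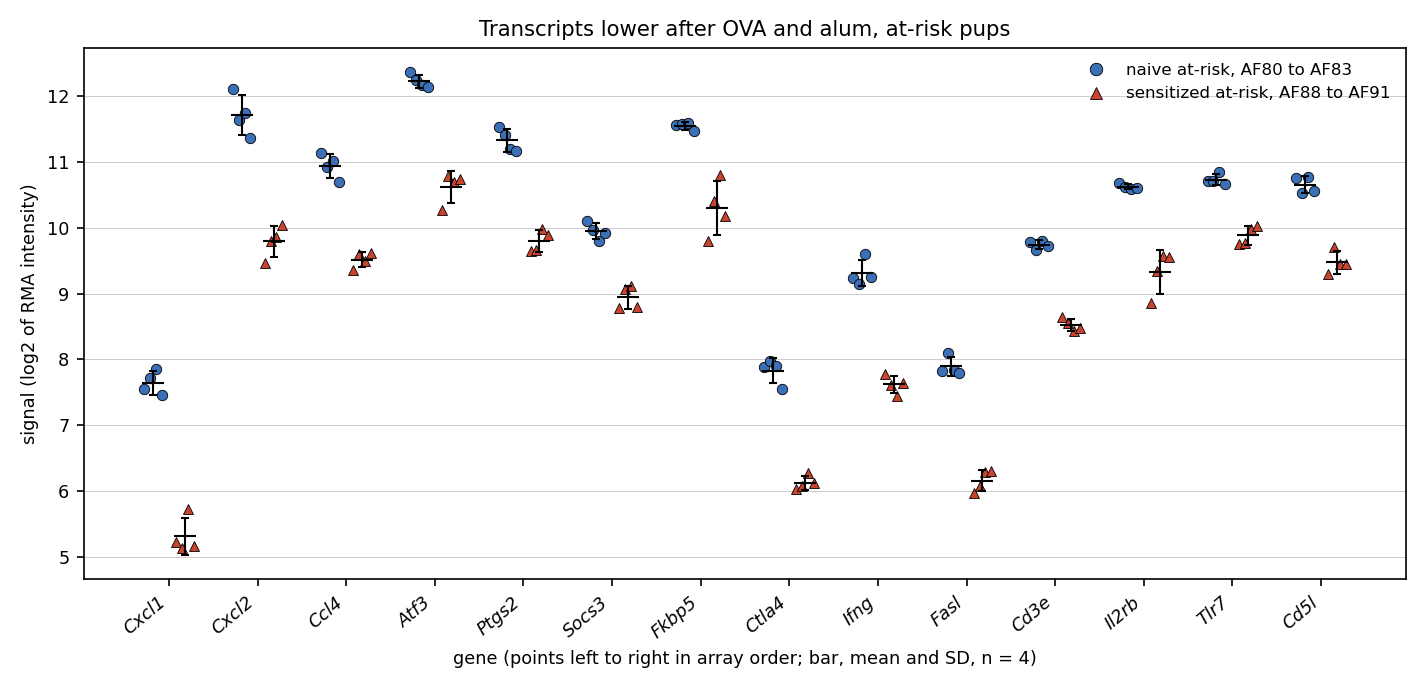
Signal (log2 of the RMA intensity) of 14 genes that fell with sensitization in asthma-at-risk pups, with circles for naïve arrays, triangles for sensitized arrays and bars for mean and SD (n = 4). In Cxcl1 the naïve arrays read 7.45 to 7.85 and the sensitized arrays 5.14 to 5.73, and the groups were also apart in Ctla4, Ifng and Atf3.

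The immediate early genes, transcription factors and regulators that cells switch on within minutes of a stimulus or of handling, were lower in sensitized pups. Of 28 measured, 17 fell and none rose, with a median of −0.57, and the mean log2 signal of the list was 10.61 to 10.78 on naïve and 10.04 to 10.22 on sensitized arrays. Atf3, a stress-induced repressor of inflammatory genes, read 12.36, 12.24, 12.17 and 12.14 on naïve and 10.26, 10.78, 10.69 and 10.75 on sensitized arrays, a fall of 1.61 ± 0.11 (limma adjusted p = 4.26e-07). The nuclear receptor Nr4a1 fell by 1.15 ± 0.12 (11.96 to 12.25 on naïve and 10.62 to 11.14 on sensitized arrays), and the small GTPase Gem by 1.30 ± 0.13. Egr1 and Jun fell less, by 0.49 ± 0.06 and 0.77 ± 0.10, from naïve levels of 13.35 to 13.55 and 12.69 to 12.83. Fos differed by −0.18 ± 0.06 and was not called.

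Inflammatory chemokines fell most strongly of the NF-κB targets. Cxcl1, which draws neutrophils through CXCR2, read 7.55, 7.71, 7.85 and 7.45 on naïve and 5.22, 5.14, 5.73 and 5.17 on sensitized arrays, a 5.02-fold fall (−2.33 ± 0.13, limma adjusted p = 3.70e-08). Its relative Cxcl2 read 12.10, 11.64, 11.75 and 11.36 against 9.47, 9.79, 9.86 and 10.05 (−1.92 ± 0.15). The groups did not overlap in either gene, and AF90 was the highest sensitized array for Cxcl1 and AF91 for Cxcl2. Of 20 NF-κB targets and feedback inhibitors, 8 fell, none rose, and the median was −0.25. The macrophage inflammatory proteins Ccl4 and Ccl3 fell by 1.42 ± 0.13 and 0.87 ± 0.10, the deubiquitinase Tnfaip3, which ends NF-κB signaling, by 1.07 ± 0.25, Nfkbiz by 0.83 ± 0.10 and Tnf by 0.51 ± 0.10. Without AF81 and AF88, 5 of 20 fell.

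The promoters of Cxcl1 and Cxcl2, the NF-κB targets with the largest falls, are shown in the same way, with GGAATTTCC, letters favored by NF-κB, in capitals and AGGAAG printed as CTTCCT on the opposite strand.
Cxcl1 (chr5:90890995-90891294, plus strand): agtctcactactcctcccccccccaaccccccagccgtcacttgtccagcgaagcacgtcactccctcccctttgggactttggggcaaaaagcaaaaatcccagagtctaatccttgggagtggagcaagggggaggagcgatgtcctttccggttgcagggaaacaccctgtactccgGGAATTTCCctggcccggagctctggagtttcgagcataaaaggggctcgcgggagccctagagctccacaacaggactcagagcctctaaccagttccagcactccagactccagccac
Cxcl2 (chr5:90903649-90903948, plus strand): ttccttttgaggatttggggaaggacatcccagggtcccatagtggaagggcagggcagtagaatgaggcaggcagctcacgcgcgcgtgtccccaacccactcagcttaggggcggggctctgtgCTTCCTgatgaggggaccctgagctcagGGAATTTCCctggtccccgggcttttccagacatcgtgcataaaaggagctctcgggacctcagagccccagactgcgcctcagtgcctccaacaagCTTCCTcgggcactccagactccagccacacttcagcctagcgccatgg
The letters GGAATTTCC began 70 bases before the start in Cxcl1 and 96 bases before it in Cxcl2. They stood in 3 of the 6 promoters found for the 8 genes that fell (Cxcl1, Cxcl2 and Tnfaip3), and in 0.317% of all promoters. This list was assembled for its known dependence on NF-κB, so the share is a description of the list.

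Of the 23 measured chemokine ligands in the list, 7 fell, and the 2 that rose were the platelet genes Pf4 and Ppbp. Cxcl5, which the list did not hold, rose by 0.87 ± 0.13. The monocyte attractant Ccl2 fell by 0.97 ± 0.15, the B cell attractant Cxcl13 by 1.18 ± 0.21 and the eosinophil attractant Ccl24 by 0.49 ± 0.15. Of 13 chemokine receptors, Ccr9 fell by 0.42 ± 0.08 and Cxcr5 rose by 0.42 ± 0.10, counts to be read against 3.42% of all genes that fell and 4.96% that rose. Cxcr5 was not called without AF81 and AF88 (limma adjusted p = 0.0658). Cyclooxygenase-2 (Ptgs2), the inducible enzyme of prostaglandin synthesis, read 11.54, 11.42, 11.19 and 11.16 on naïve and 9.65, 9.66, 9.98 and 9.90 on sensitized arrays, a fall of 1.53 ± 0.09 (limma adjusted p = 9.97e-08). In the same pathway of 14 genes the leukotriene receptor Cysltr1 rose by 0.59 ± 0.12 and the prostaglandin E2 receptor Ptger2 by 0.65 ± 0.14. Cysltr1 was not called when all 24 arrays were fitted (limma adjusted p = 0.165). In that list 3 genes fell, and 1 did so without AF81 and AF88.

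Cytokines and their brakes changed at lower levels. Of 14 cytokines that DCs can make, 3 fell and 2 rose, beside 3.42% and 4.96% of all genes. Interferon-β (Ifnb1) read 5.08, 5.43, 5.36 and 4.98 on naïve and 4.17, 4.13, 4.48 and 4.54 on sensitized arrays (−0.88 ± 0.13), and Il10, an anti-inflammatory cytokine, 5.21, 4.85, 4.62 and 4.87 against 4.17, 4.35, 4.20 and 3.98 (−0.71 ± 0.11). Both signals were low on all arrays. Il12a, the p35 chain of IL-12, rose by 0.54 ± 0.11 and the epithelial-type cytokine Tslp by 0.39 ± 0.10. Of these rises 1 was called without AF80, AF88, AF90 or AF91, and neither without both AF81 and AF88, where Tnf also lost its call. Of 13 genes of the inflammasome and the IL-1 family 3 fell, the IL-1 decoy receptor Il1r2, Casp4 and Nlrp3, and 1 did so without AF81 and AF88. Nlrp3 was also not called without AF80, AF81, AF83, AF87, AF88 or AF89 or when all 24 arrays were fitted. Socs3, a feedback inhibitor of cytokine receptors, was the only called member of 12 in the IL-6 and SOCS list and fell by 1.01 ± 0.11.

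Genes of antigen presentation and DC maturation gave no call. None of 11 MHC class II pathway genes and none of 19 costimulation and maturation genes passed, where 4.96% of all genes rose and 3.42% fell, and their medians were 0.01 and −0.04. The invariant chain Cd74 read 14.26 to 14.31 on naïve and 14.28 to 14.37 on sensitized arrays, and Cd86 differed by −0.04 ± 0.07. Of 18 conventional DC genes only Esam rose, by 0.46, and Esam is shared with endothelium and lost its call under some alternatives. Itgax differed by 0.06 ± 0.08 and Flt3 by −0.04 ± 0.06. Zbtb46, a transcription factor of conventional DCs though not of them alone, was higher by 0.25 ± 0.06 (limma adjusted p = 0.0104), under the fold threshold.

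Plasmacytoid DC and macrophage genes leaned lower. Of 8 plasmacytoid DC genes 3 fell and none rose, with a median of −0.34: the kallikrein Klk1 by 0.71 ± 0.08, Ccr9 and Cox6a2, the last of which was not called without AF82 or without both AF81 and AF88. Tlr7, the sensor of single-stranded RNA that plasmacytoid DCs express strongly, read 10.71, 10.71, 10.84 and 10.66 on naïve and 9.75, 9.77, 9.99 and 10.03 on sensitized arrays, a fall of 0.85 ± 0.10 (limma adjusted p = 5.32e-05), and the LPS coreceptor Cd14 fell by 0.81 ± 0.10. No other of 12 genes in the Toll-like receptor list was called, where 3.42% of all genes fell and 4.96% rose. Of 18 macrophage genes 4 fell, with a median of −0.21, led by Cd5l, made by tissue macrophages, at −1.18 ± 0.11 and the scavenger receptor Marco at −0.63 ± 0.09. Without AF88, and also without AF82, 2 of 18 fell. The phagocytic receptor Mertk and the bridging protein Mfge8, which serve the clearance of dying cells, fell by 0.45 ± 0.10 and 0.45 ± 0.08, and in that list of 11 genes 4 fell and 1 rose.

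The falls in inducible genes moved with the marker lists of other cell types. On the same arrays the T cell list mean was 9.0 to 9.1 on naïve and 8.13 to 8.20 on sensitized arrays, the NK list mean 9.96 to 10.10 and 9.19 to 9.41, and the macrophage list mean 11.57 to 11.75 and 11.30 to 11.40. The platelet list mean moved the other way. Cd3e still read 8.43 to 8.64 and Ncr1 9.04 to 9.52 in sensitized pups. The part of these cells in the falls of immediate early genes, chemokines and cytokines was not tested.

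**Figure D4:**
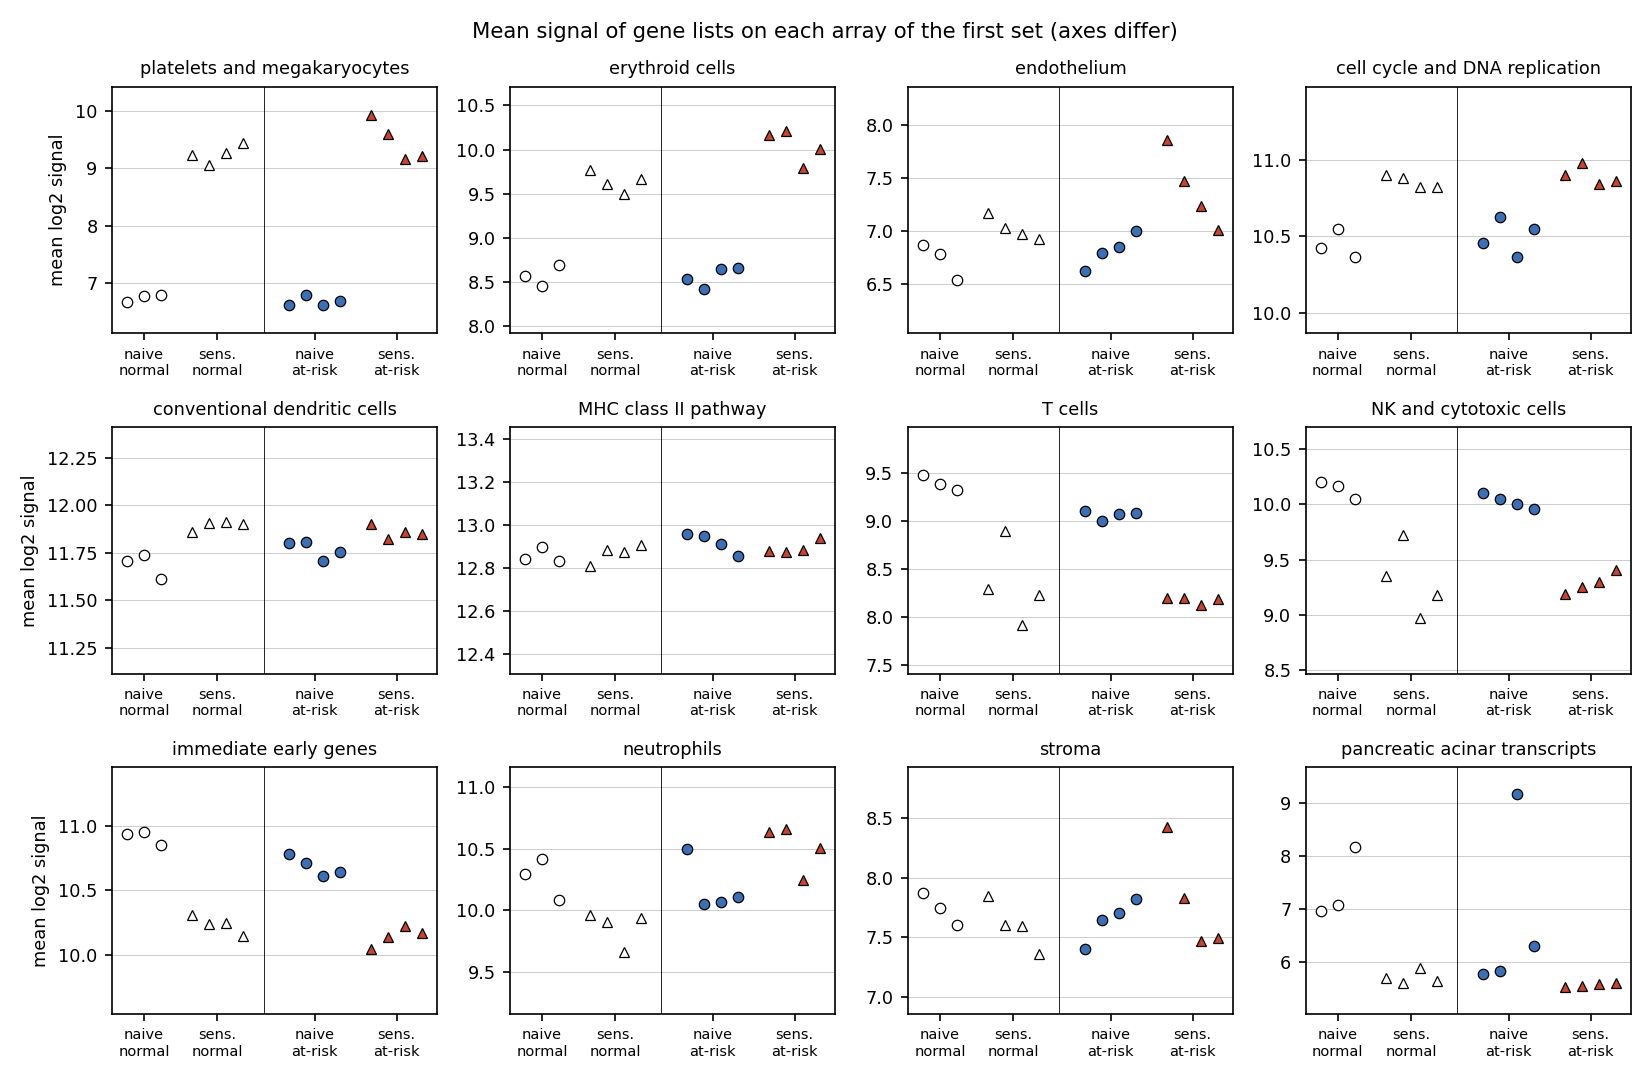
Mean log2 signal of 12 gene lists on each of the 15 arrays of the first set, with circles for naïve and triangles for sensitized pups, open for normal and filled for asthma-at-risk pups, and a different axis range in each panel. The platelet list mean was 6.61 to 6.79 in naïve and 9.16 to 9.93 in sensitized asthma-at-risk pups, and the T cell list mean 9.0 to 9.1 and 8.13 to 8.20.

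Stress and hormone responses moved in a few genes. Of 27 genes of the amino acid and ER stress response 5 rose and 1 fell. Asparagine synthetase (Asns), induced when amino acids run short, read 8.83, 8.34, 8.23 and 8.34 on naïve and 10.70, 10.85, 10.34 and 10.61 on sensitized arrays, a 4.55-fold rise (2.19 ± 0.14, limma adjusted p = 1.10e-07). The pseudokinase Trib3 rose by 1.63 ± 0.20 and the factor Atf5 by 0.76 ± 0.12, whereas the median of the list was 0.01. Ddit3 and Chac1 rose by 0.49 ± 0.12 and 0.68 ± 0.18, and without AF89 the number of rises in the list was 3. Chac1 was also not called without AF80, AF83 or AF88 or when all 24 arrays were fitted. Cebpb fell by 0.89 ± 0.13 on its brightest probe set and was not called on its other probe set.

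Fkbp5, a cochaperone induced by glucocorticoids, read 11.56, 11.58, 11.59 and 11.46 on naïve and 9.80, 10.41, 10.80 and 10.18 on sensitized arrays, a 2.38-fold fall (limma adjusted p = 8.45e-05). The naïve arrays were close together, the sensitized arrays were spread out, and the groups did not overlap. Of 16 genes of the glucocorticoid response 4 fell, with Il1r2 at −1.01 ± 0.20, Zbtb16 at −0.78 ± 0.12 and Per1 at −0.68 ± 0.18, and 1 rose, the metallothionein Mt2, by 1.67 ± 0.18. AF88 was the lowest sensitized array in Fkbp5 and Per1, and without it Per1 differed by −0.44. Per1 was not called without AF80 or AF81 or when only the compared groups were fitted (limma adjusted p = 0.0547, 0.0870 and 0.0732), and the other probe set of Zbtb16 differed by −0.27 and was not called. Heat shock proteins, hypoxia and glycolysis genes, cholesterol genes and genes that write or read DNA methylation had no call among 16, 15, 11 and 12 members. Of all genes 4.96% rose and 3.42% fell, so an absence of calls in lists of this size says little. All 16 heat shock genes had a negative difference, from −1.06 to −0.01, with a median of −0.12. Of 23 interferon response genes 4 fell and 2 rose, Isg20 by 0.89 ± 0.16 and Rsad2 by 0.40 ± 0.09, and without AF81 only 1 of these rises was called.

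Genes that the study's text had named in connection with asthma were followed as a further list. It was chosen on these arrays, among others, so it is not independent evidence of a direction. Of 27 measured, 7 rose and 8 fell, with a median of −0.18. Besides Alox12, Npy and Trpc6, the rises included the red cell membrane protein Dmtn at 2.04 ± 0.14 and the lamin gene Lmna at 0.97 ± 0.15. The falls included Eomes, Gata3, Socs3 and the small GTPase Rhob, at −0.73. The platelet list moved with Alox12, Npy and Trpc6 on the same arrays, and its part in their rise was not tested.

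Where the response of asthma-at-risk pups differed from that of normal pups was tested on the first array set with the 3 naïve and 4 sensitized arrays from offspring of control mothers. These comparisons share no array. The naïve normal array AF79 had a log2 ratio of the 3′ to the 5′ actin probe sets of 1.255, against 0.42 to 0.61 on the other normal arrays. Its median correlation within its group was 0.990. AF79 enters each difference below and the shared error of all calls. In normal pups 2599 probe sets were called, and 1224 were called in the same direction in both, which is 68.7% of the calls in at-risk pups and 47.1% of those in normal pups. Only 2 were called in opposite directions, Ift80 at 0.36 and −0.35 and the granulocyte progenitor gene Ms4a3 at 0.73 and −1.04 in at-risk and normal pups, both named after their values were seen. A call in 1 comparison alone does not show a difference, and the difference itself passed in 11 of 22626 probe sets (0.0486%), all with a higher log2 difference in at-risk pups. Without AF81 and AF88 none passed in limma, while 1541 had an unadjusted p under 0.05. Leaving out single arrays gave from 1 to 30, and 10 without AF79.

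In these genes the fall with sensitization was smaller or missing in at-risk pups. Chil3, a chitinase-like protein of myeloid cells, read 11.91, 11.30, 11.41 and 11.50 on naïve and 11.36, 11.46, 11.08 and 11.24 on sensitized at-risk arrays, which overlapped. In normal pups it went from 11.73 to 11.83 down to 9.90 to 10.18, so that the effects were −0.24 and −1.76 and their difference 1.51 ± 0.17 (limma adjusted p = 0.00682). Prom1, which encodes the membrane protein CD133, read 6.75 to 7.61 on naïve and 6.62 to 7.48 on sensitized at-risk arrays, and 7.54 to 8.13 and 5.79 to 6.21 in normal pups. Its effects were −0.03 and −1.91, a difference of 1.88 ± 0.30. In both genes the sensitized arrays of normal pups were lower than all others. Chil3 was not called when all 24 arrays were fitted (limma adjusted p = 0.0969) or without AF81 and AF88 (0.0506), and with single arrays left out Prom1 was called only without AF80 or AF90.

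For other genes the naïve arrays were the ones that differed in level. Il6, the inflammatory cytokine, was at 5.47 to 5.76 in naïve and 5.11 to 5.56 in sensitized at-risk pups, and at 6.68 to 6.80 and 5.12 to 5.64 in normal pups (difference 1.10 ± 0.17). With single arrays left out Il6 was called for the difference only without AF80, AF85 or AF90. Mfge8 was at 9.08 to 9.24 in naïve at-risk and 9.86 to 10.08 in naïve normal pups, and at 8.56 to 8.84 and 8.60 to 8.80 after sensitization (0.81 ± 0.11). The same order held for Socs2, an inhibitor of growth hormone and cytokine signals, at 10.33 to 10.46 against 10.84 to 10.99 in naïve pups, and for the immediate early gene Phlda1. Both probe sets of Socs2 passed, with differences of 0.62 ± 0.09 and 0.83 ± 0.14 (limma adjusted p = 0.0311 and 0.0480). Xcl1, a chemokine of NK and CD8 T cells for cross-presenting DCs, fell by 0.77 ± 0.12 in at-risk and by 1.90 in normal pups (1.13 ± 0.17). With single arrays left out, Xcl1 and the brightest probe set of Socs2 were called for the difference only without AF80, AF85, AF88 or AF90. Anxa3, Dnajb4 and Ptpn2 differed by 0.64 to 1.08, the latter pair not on their brightest probe sets.

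Some contrasts between the groups of pups, large and small, that did not pass the test of the difference are given with it. The medians of the platelet list were 3.25 in at-risk and 2.83 in normal pups. Ppbp rose by 5.40 and 5.37 (difference 0.03 ± 0.34), Gp5 by 3.40 and 2.76 (0.64 ± 0.26, limma adjusted p = 0.506) and Gp1bb by 4.27 and 3.84 (0.43 ± 0.41, limma adjusted p = 0.783). Among the azurophil granule genes Prtn3 differed by 1.59 in at-risk and 0.17 in normal pups, a difference of 1.42 ± 0.33 (limma adjusted p = 0.179), and Elane by 1.45 and 0.12 (1.33 ± 0.32, limma adjusted p = 0.189). Asns rose by 2.19 and 1.14 (1.05 ± 0.20, limma adjusted p = 0.0850), and Epx by 1.86 against a difference of 0.66 (1.20 ± 0.29, limma adjusted p = 0.190). Fkbp5 fell 2.38-fold in at-risk pups and differed by −0.20 in normal pups, whose naïve arrays were at 9.69 to 10.09 where the naïve at-risk arrays were at 11.46 to 11.59, but the difference of −1.05 ± 0.23 did not pass (limma adjusted p = 0.134).

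**Figure D5:**
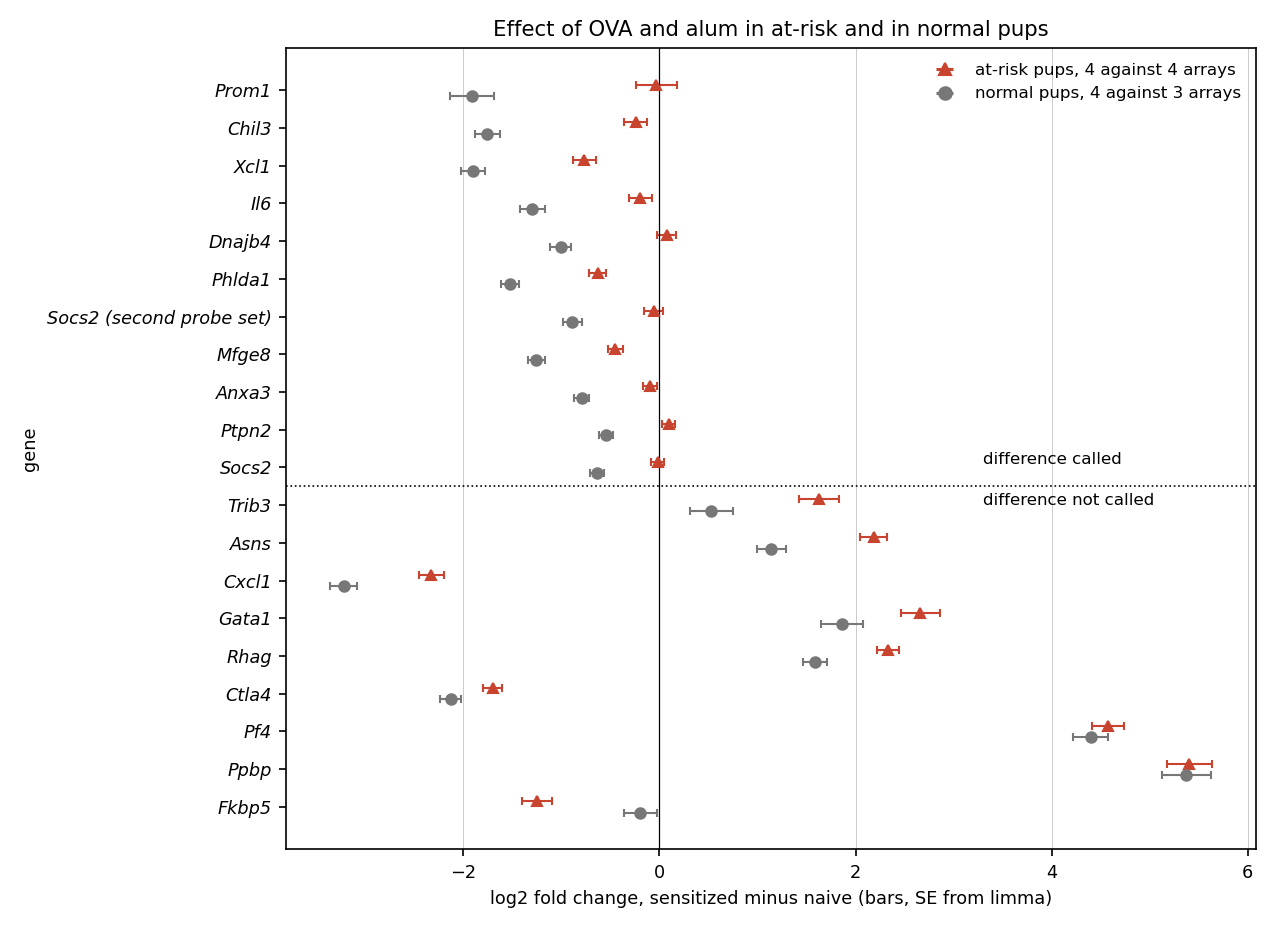
Log2 difference between sensitized and naïve pups (x axis, bars SE from limma) for asthma-at-risk pups (triangles) and normal pups (circles), with genes called for the difference above the dotted line and 9 others below it. Ppbp stood at 5.40 and 5.37, while Chil3 stood at −0.24 in at-risk and −1.76 in normal pups and Prom1 at −0.03 and −1.91.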

How the data were processed

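The authors deposited 1 intensity per probe set and array on a linear scale, made with RMA. The version of RMA was not given in the sources used here. The methods state that the array sets were preprocessed separately, and the second set was amplified with another kit and was used here only as an alternative. The table held Affymetrix's own probe sets, whereas the methods describe a RefSeq-based definition. RMA subtracts background and quantile-normalizes the arrays of a set, so the values are relative to the arrays processed together and a shift common to all genes cannot be seen. Log2 was taken of every deposited intensity with no pseudocount, and no column belonged to no sample (0 such columns).

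Of 22690 probe sets, 64 controls were left out and 22626 were tested, of which 20380 had 1 gene symbol in the platform annotation, 691 several and 1555 none. Only those with 1 symbol were named (12393 genes), each gene by its probe set of highest mean signal. Genes without one were not analysed here. limma 3.58.1 in R 4.3.3 (lmFit, eBayes) was fitted to the 15 arrays of the first set with 1 mean per group. Calls needed an adjusted p (Benjamini-Hochberg over all probe sets) of at most 0.05 and at least a 1.25-fold change. Named were the 20 largest rises and falls, up to 6 called members of each list, defining markers, genes called for the difference from normal pups, and other probe sets of a named gene whose call differed. The scripts were tested on simulated data. The comparison and the gene lists were chosen with earlier results of these data known. Promoters and figures used matplotlib 3.10.9, pandas 2.3.3 and numpy 2.4.6 in Python 3.11.15. The alternatives were all 24 arrays, only the compared groups, another quantile normalization, median centring, a filter on low signal, log2 after adding 16, array weights, trend and robust, limma's treat, no fold threshold, each gene reduced to 1 probe set, and single arrays left out. AF81 and AF88 were left out together after the data were seen. Precision is limited by the number of arrays.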

Additional observations from a re-analysis of the deposited data

Results flagged for a closer look

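Among 370 sets of 4 arrays (149 named genes and 36 list means, each in naïve and in sensitized asthma-at-risk pups), 17 had 1 array far from the other 3 by Dixon's criterion. Chance flags about 1 in 20 groups, and the causes were not tested. The value given for each is the gap to the nearest array divided by the range of the 4.

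AF88 was the lowest sensitized array for Atf3 (0.834), Cd14 (0.846), Jun (0.921), Per1 (0.894) and the mean of the glucocorticoid list (0.922). Per1 read 8.61 there and 9.52 to 9.63 on the other 3. AF90 was the highest sensitized array for Cxcl1 (0.857) and the lowest for Isg20 (0.848) and Rhag (0.911). AF89 was the highest for Cxcl15 (0.889) and the lowest for Ptgds (0.953), whose other probe set differed between groups by −0.07 and was not called, and AF91 the highest for the MHC class II list (0.861). Among naïve arrays AF81 was the highest for Fasl (0.842) and Ppbp (0.832) and the lowest for the plasma cell list (0.840), and AF80 was the highest for Prtn3 (0.962) and the neutrophil list (0.867). AF82 was the highest for the pancreatic list (0.843).

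The change with sensitization differed between asthma-at-risk and normal pups in 11 probe sets by limma's contrast of the effects, and each difference (at-risk minus normal, log2) was positive. The differences were 1.51 for Chil3, 1.08 for Dnajb4, 0.81 for Mfge8, 0.89 for Phlda1, 0.70 for Anxa3, 0.64 for Ptpn2, 1.13 for Xcl1, 1.10 for Il6, 1.88 for Prom1 and 0.62 and 0.83 for the 2 probe sets of Socs2.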

How the results depend on the processing

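In asthma-at-risk pups 1782 probe sets were called. The count was 512 with limma's treat (342 higher, 170 lower), which tests against the fold threshold itself, and 1057 with 1 probe set per gene, where fewer were tested. Leaving out single arrays gave 1458 (without AF88) to 2074 (without the normal array AF79), and leaving out AF81 and AF88, chosen after seeing the data, gave 1251. The other alternatives gave 1235 to 2171. For 141 named called genes under 23 alternatives, 3146 of 3243 values kept their call, 97 lost it (26 genes) and none reversed. For 8 genes called for the difference from normal pups, 94 of 176 values kept their call and 82 lost it, and each of the 8 lost it at least once.

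The difference from normal pups was called for 11 probe sets, and this count was unstable. It was 19 with median centring, 21 with the filter on low signal, 21 with trend and robust, 42 with array weights, 21 with 1 probe set per gene, 0 with treat (196 at an unadjusted p under 0.05) and 0 without AF81 and AF88 (1541). Leaving out single arrays gave 1 (without AF82, AF83, AF86, AF87 or AF91) to 30 (without AF90). It was 28 without AF80, 6 without AF84, 5 when AF77 or AF89 and 3 when AF76 or AF81 was absent. The cause was not tested. Fitting only the compared groups is the same fit for this difference. No paired analysis was possible because the groups compared share no replicate numbers. The number of arrays limits the precision.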

Other observations

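Ppbp and Pf4, the largest rises among chemokines, and Cxcl1 and Cxcl2, the largest falls, are neighbors on chromosome 5 in RefSeq's order of genes, a fact read after their values were seen. The order is Cxcl5, Ppbp, Pf4, Cxcl3, Cxcl15, Cxcl1 and Cxcl2, and Cxcl3 was not analysed here. Cxcl5, which attracts neutrophils and which platelets also store, read 4.07, 4.01, 4.08 and 4.16 on naïve and 5.18, 4.64, 4.99 and 4.98 on sensitized arrays and rose by 0.87 ± 0.13 (limma adjusted p = 0.000407). Cxcl15, between the genes that rose and those that fell, was at 3.47 to 3.77 on all 8 arrays and was not called. Within this stretch the genes on the Ppbp side were higher and those on the Cxcl1 side lower in sensitized pups.

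Transcripts of the exocrine pancreas, an organ that touches the spleen, were high on AF82, whose list mean was 9.17, against 5.78 to 6.32 on the other naïve and 5.53 to 5.61 on the sensitized arrays. Of the 9 genes of the list 1 was called, the elastase Cela1, lower by 0.61 in sensitized pups, and all 9 had negative differences. Cela1 was lower by 0.43 without AF82 and not called then (limma adjusted p = 0.0876), nor without any other single array of the 8 except AF80. In normal pups the list mean was 6.96 to 8.17 on naïve and 5.62 to 5.89 on sensitized arrays. The Y-linked gene Eif2s3y read 3.66 on AF81 and 9.35 to 10.83 on the others, and Xist read 12.02 to 12.66 on all 8 arrays.

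In the sensitized asthma-at-risk pups of the second array set, normalized separately and without naïve arrays, the platelet list mean was 8.00 to 9.10 on 5 arrays. In the sensitized normal pups of that set (AF118 to AF121) it was only 6.96 to 7.09. The sensitized normal pups of the first set were at 9.06 to 9.45, so a high platelet signal was not seen in every sensitized group. No test was made across sets.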
